A study of Mus musculus with 19 samples.

Results

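The genes described here code for mitochondrial ribosomal proteins, the protein part of the ribosome that works inside mitochondria. Members were selected by symbol, as every gene named Mrpl or Mrps with a number and without the mark of a pseudogene in both count tables. This gave 77 of the 20436 genes listed, 48 by symbol in the large subunit and 29 in the small subunit. The family and Mrpl50 within it were chosen by values of these same libraries, namely the ratio of ribosome-protected fragments to RNA at rest and the difference between DHPG and basal slices. Those quantities are therefore given as descriptions, and the counts that follow from them are no independent support for any direction.

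The libraries came from hippocampal slices of wild-type male mice aged 28 to 42 days, and each replicate pooled slices from 6 mice. By the study's methods, field CA3 was not removed from the slices of replicates 1 to 5, which are all those used here. Slices received 100 µM DHPG, an agonist of group I metabotropic glutamate receptors that induces long-term depression, or the vehicle artificial cerebrospinal fluid (basal) for 5 min. All slices of both groups were then treated with 100 µg/ml cycloheximide, which holds ribosomes on the mRNA. RNA-seq gave 4 basal and 5 DHPG libraries, and ribosome profiling gave 5 basal and 5 DHPG libraries of ribosome-protected fragments (RPFs).

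Slices hold neurons, glia and vessels together, so a smaller share of one cell type and less RNA per cell cannot be told apart. Total counts ran from 4870813 to 7793244 in the 9 RNA libraries and from 5692064 to 22092434 in the 10 RPF libraries. Markers of neurons, astrocytes, oligodendrocytes, microglia and hippocampal fields were counted in every group. Markers of the thalamus, which lies next to the hippocampus, were also counted, and all 13 of that list had values.

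The mitochondrial ribosome makes only the few proteins coded by mitochondrial DNA, all of them core subunits of the respiratory chain and ATP synthase. Its RNAs come from the mitochondrial genome, but its proteins are coded in the nucleus, made on cytosolic ribosomes and imported. Some of them have counterparts in bacterial ribosomes, and others are particular to mitochondria. An RPF of these genes therefore reports a cytosolic ribosome making a part of a mitochondrial one. By background knowledge, Mrps30 and Mrps18a carry a small subunit symbol although their proteins sit in the large subunit, and Mrps36 is held to belong to the 2-oxoglutarate dehydrogenase complex rather than to the ribosome.

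All 77 members passed the filter on low counts in both assays and were found in the annotation, so none is left out of the counts that follow. In mm10, Mrpl50 lies at chr4:49512596-49521093 on the minus strand and has 2 exons, a coding sequence of 480 nt and a transcript of 2114 nt. Its start lies 83 nt from that of Zfp189 on the other strand, a divergent arrangement. Mrpl18 (chr17:12911349-12916345, minus strand, 4 exons) overlaps Tcp1 on the opposite strand. Mrpl46 and Mrps11, a large and a small subunit gene, also overlap each other at their starts on opposite strands. Mrps24 shares its strand with the overlapping Urgcp, Mrps34 with Nme3 and Mrps6 with Slc5a3. Some other members also overlap a gene on their own strand, such as Mrpl33 with Gm43809 and Mrps28 with Gm15466. These are overlaps of whole gene spans, introns included, and whether reads of such genes were kept apart was not tested.

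The 3 members whose RNA differed most between DHPG and basal slices in the same direction in every pair are shown by the bases in front of their starts. Each is the 100 bases before the RefSeq start on GRCm38.p6, read 5′ to 3′ on the strand of the gene. These starts differ from those of the annotation that gave the gene positions above. All of the Mrpl18 window lies inside the gene as annotated there, and the windows of Mrpl50 and Mrpl16 run into theirs. Capitals mark the short motifs that were searched.
Mrpl50 at chr4:49521084-49521183 (minus strand): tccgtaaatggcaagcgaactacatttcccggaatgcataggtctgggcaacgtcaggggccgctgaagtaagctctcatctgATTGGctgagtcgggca
Mrpl18 at chr17:12916092-12916191 (minus strand): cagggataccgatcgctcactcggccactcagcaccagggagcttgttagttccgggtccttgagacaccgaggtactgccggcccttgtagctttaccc
Mrpl16 at chr19:11770315-11770414 (plus strand): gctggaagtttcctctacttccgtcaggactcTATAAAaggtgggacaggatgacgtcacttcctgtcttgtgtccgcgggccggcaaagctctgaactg
The Mrpl50 window holds the letters of the NFY motif, that of Mrpl16 holds a TATA box, and that of Mrpl18 holds none of the motifs searched.

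Promoters of 68 members were found in the RefSeq table, as 300 bases that run from 250 before to 50 after the start, and 9 members had no entry. They were read on both strands for 6 short motifs, chosen after the counts were seen. CCGGAAG, the core bound by the ETS family to which the mitochondrial regulator GABPA belongs, was present in 24 of the 68 promoters (35.3%) and in 17.4% of the promoters of all 9615 measured genes with an entry. AAGATGG, part of the site of YY1, was in 13 (19.1%, against 7.13% of all). GCATGCG, part of the site of NRF1, was in 8 (11.8%, against 6.65%), 7 of them large subunit genes. CCAAT of NFY was in 27 (39.7%, against 38.5%), GGGCGG of the SP family in 34 of 68 (against 66.1%) and TATAAA in 4 (5.88%, against 6.57%). These are matches of letters and no evidence of binding, and the shares were not tested.

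At rest the members lay above the typical gene in both assays, and further above it in RPFs. RNA per kb of transcript had a median of 20.1 CPM per kb in the large subunit and 16.6 in the small subunit, beside 9.90 over the 12640 genes with a ratio (CPM, read counts scaled to library size). RPFs per kb of coding sequence, counted without the 30 nt at either end, had medians of 75.6 and 57.1 CPM per kb, beside 18.6 over all genes. Both subunits stood far below the cytosolic ribosomal proteins, whose medians were 385 CPM per kb for RNA and 329 for RPF. They also stood below the nuclear-coded subunits of oxidative phosphorylation, with medians of 143 and 442 CPM per kb. All members together took 0.223% ± 0.0126 of the counts in basal RNA libraries (SD, n = 4) and 0.288% ± 0.0127 in basal RPF libraries (SD, n = 5).

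**Figure D1:**
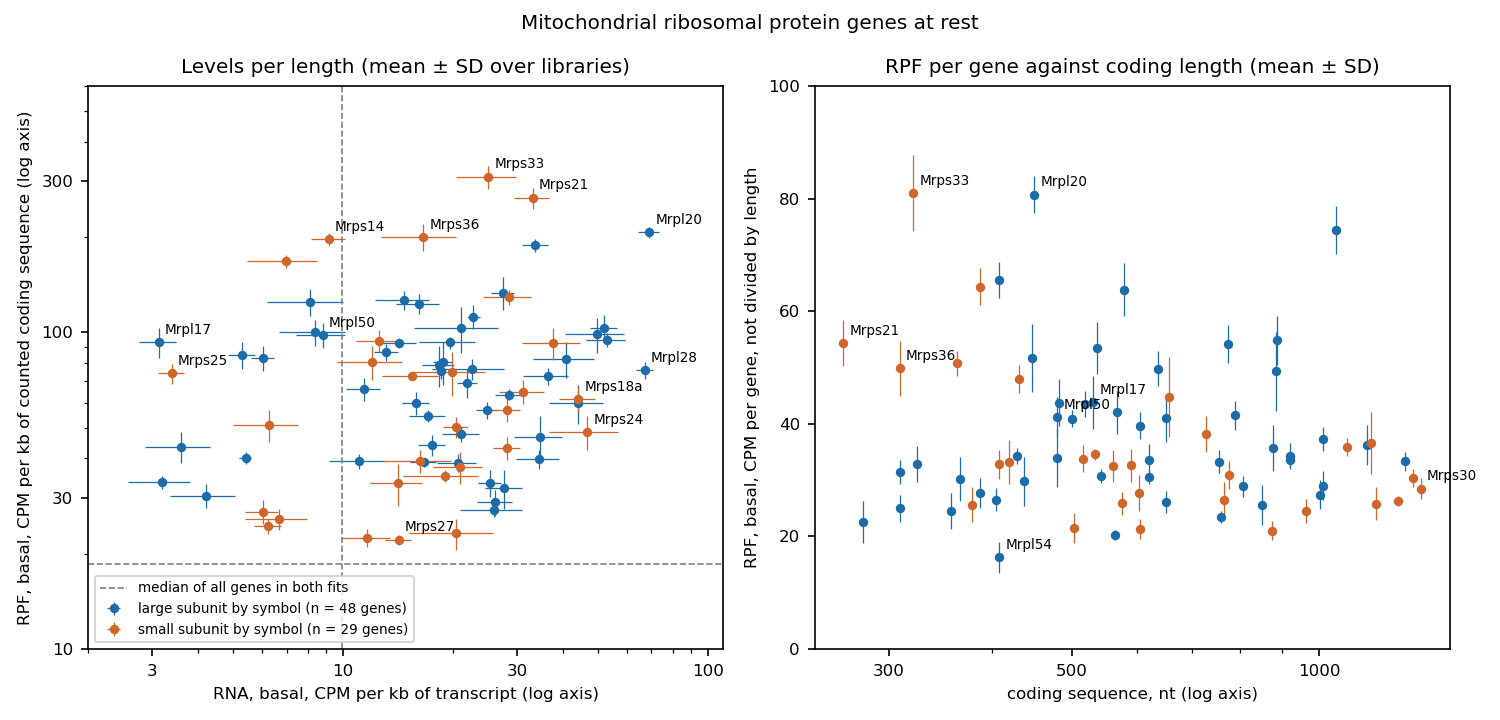
Left, RNA against RPF level of each member in basal slices, in CPM per kb on log axes, as mean ± SD over 4 RNA and 5 RPF libraries; dashed lines mark the medians of all genes (9.90 and 18.6). Right, RPF CPM per gene, not divided by length, against coding length on a log axis, as mean ± SD over 5 libraries. The members span 16.3 to 81 CPM. The slope of log2 CPM per doubling of length was -0.103 over all members, 0.158 in the large and -0.396 in the small subunit.

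A group of large subunit genes had the highest RNA per length. Mrpl20, which has a bacterial counterpart, had 68.9 ± 4.57 CPM per kb, Mrpl28 had 67.1 ± 3.76 and Mrpl23 had 52.8 ± 6.49 (SD, n = 4). The lowest in the large subunit were Mrpl17 at 3.13 ± 0.362, Mrpl47 at 3.19 ± 0.615 and Mrpl19 at 3.59 ± 0.728, all with long transcripts (7300, 3364 and 5000 nt). In the small subunit Mrps24 (46.6 ± 9.94), Mrps18a (44.0 ± 4.95) and Mrps12 (37.7 ± 6.85), the last a relative of a protein of the bacterial decoding site, were highest. Mrps25 (3.39 ± 0.275), Mrps35 (6.03 ± 0.627) and Mrps5 (6.22 ± 0.532) were lowest. Within each set of 3, neighbours overlapped within their SDs, except Mrpl28 from Mrpl23 and Mrps25 from Mrps35.

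RPFs per gene were close to one another among the members. Not divided by length, basal RPFs of the 77 genes ran from 16.3 CPM (Mrpl54) to 81 CPM (Mrps33), and the genes from the lower to the upper quartile lay between 27.7 and 43.5 CPM around a median of 33.5. The SD of the log2 values was 0.48, beside 0.89 for the 78 cytosolic ribosomal proteins, 1.06 for the 74 oxidative phosphorylation subunits and 2.11 for all genes. The same SD for RNA CPM was 0.66, beside 1.11, 1.41 and 2.01.

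RPFs per kb, in contrast, followed the coding length. Across the 77 members log2 RPF per kb and log2 coding length had a Pearson r of -0.838 (Spearman -0.847), with a slope of -1.22 per doubling of length. Equal counts divided by the counted length would give a slope of -1.12 in each subunit, beside -0.962 in the large and -1.51 in the small subunit as measured. All genes together had a slope of -1.02 with a wider scatter (r = -0.453), where equal counts would give -1.06. Undivided RPF CPM had an r of -0.129 with coding length, being 0.182 over the 48 large subunit genes and -0.555 over the 29 small subunit genes. The points of these descriptions share their libraries, and coding length enters both axes of the first. The 22 members with a coding sequence under 450 nt had a median of 102 CPM per kb, the 40 members of 450 to under 900 nt had 62.6 and the 15 members of 900 nt or more had 30.5.

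The shortest small subunit genes stood at the top of the RPFs per length. Mrps33, with a coding sequence of 321 nt, had 79.5, 89.1, 81.3, 70.9 and 84.3 CPM in the 5 basal RPF libraries and 310 ± 25.8 CPM per kb (SD, n = 5). Mrps21, at 264 nt the shortest member, had 266 ± 20.2 and Mrps36 had 200 ± 19.6, with Mrpl20 of the large subunit at 207 ± 8.38. Mrps33 and Mrps21 overlapped narrowly within their SDs, Mrpl20 and Mrps36 overlapped as well, and the former pair stood apart from the latter. At the lower end were 3 long genes, Mrps27 at 22.1 ± 0.796, Mrps30 at 22.4 ± 1.501 and Mrps9 at 23.2 ± 2.63 CPM per kb, whose ranges overlapped. Mrps30 codes for a large subunit protein, and its RPF level per length was also under that of every gene with a large subunit symbol.

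The ratio of RPF to RNA in basal slices, taken per length within replicates 1 to 4, was higher in most members than in the typical gene. Its median on the log2 scale was 1.87 in the large subunit and 1.90 in the small subunit, beside 0.84 over the 12640 genes. In all, 62 of 77 members lay above the all-gene median, 39 of 48 large and 23 of 29 small. The median over all members was 1.98, 1.62, 1.71 and 1.84 in replicates 1 to 4, so it exceeded the all-gene median in each of them. Cytosolic ribosomal proteins had a median of -0.21, and 17 of 78 lay above the all-gene median. Oxidative phosphorylation subunits had 1.60, and 57 of 74 lay above it. The ratio was part of what chose the family, so these values describe it and were not tested.

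How far the family stood above other genes rested on the lengths used. Without division by length, the median log2 ratio was 0.41 in the large and 0.25 in the small subunit, beside -0.18 for all genes. The median percentile of the members among all genes was then 71.1, beside 75.9 per length. The study counted RPFs on RefSeq coding sequences, while the main lengths came from GENCODE. With the transcripts that GENCODE pairs with a RefSeq mRNA, the small subunit median was 1.28, beside 0.86 over all genes. The large subunit median stayed at 1.87, so the subunits, close in the main ratio, then differed. Both subunits lay above the all-gene median under each of these choices.

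**Figure D2:**
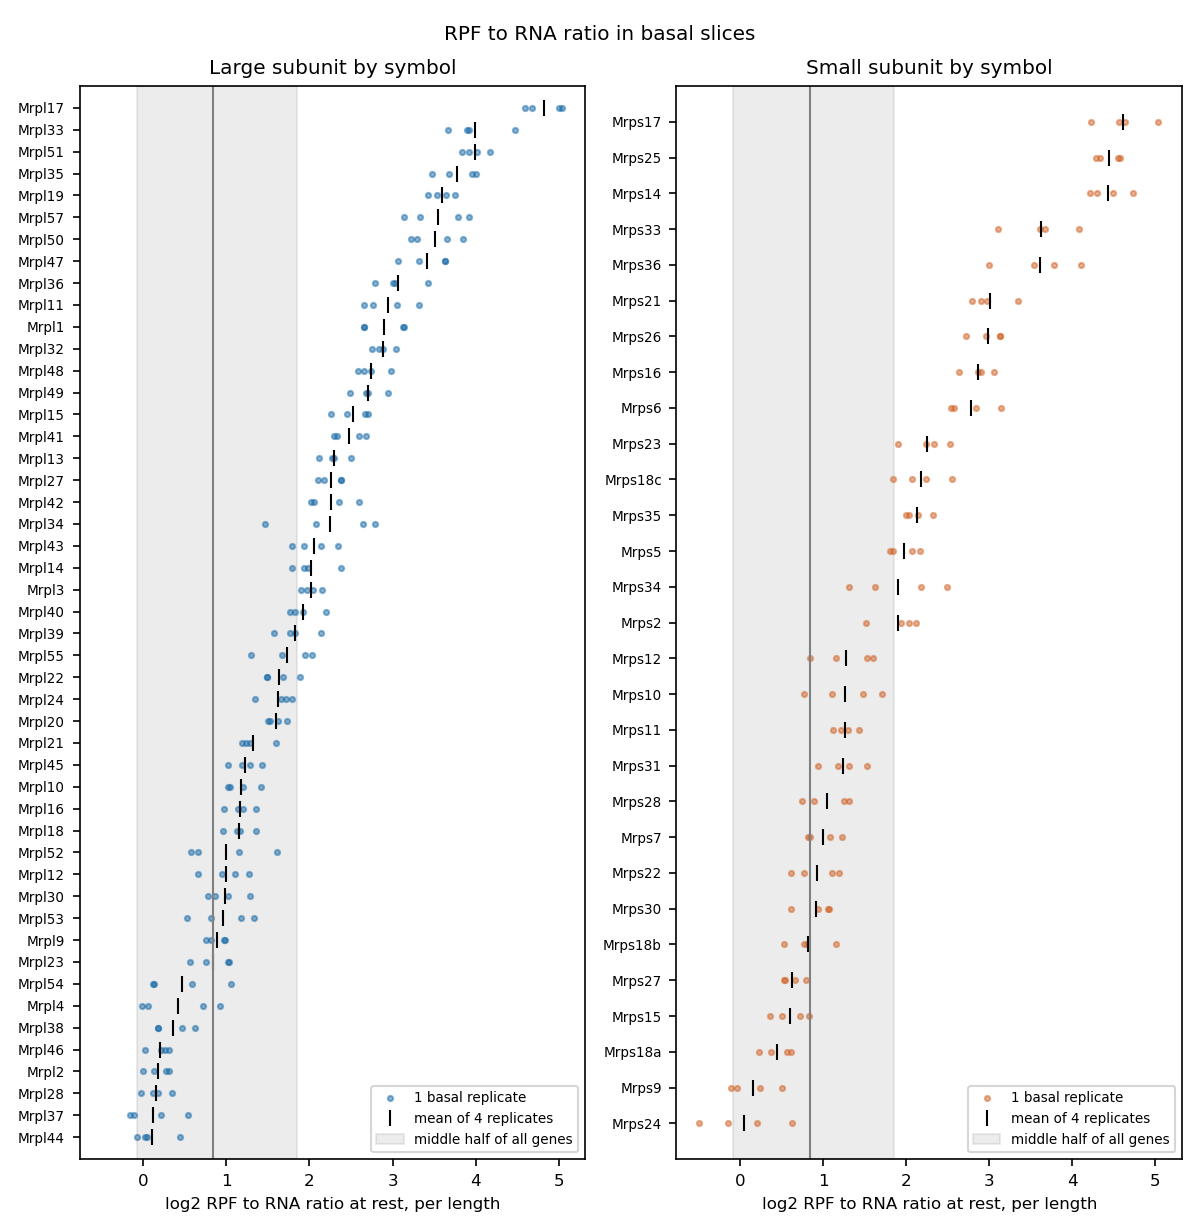
The log2 RPF to RNA ratio per length of each member in basal slices, large subunit at left and small subunit at right, with circles for the 4 replicates and a black stroke for their mean. The grey line is the all-gene median (0.84) and the shaded band the range between the quartiles of all genes; the members run from 0.047 (Mrps24) to 4.83 (Mrpl17).

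Among large subunit genes, Mrpl17, whose bacterial counterpart lies near the exit tunnel, had the highest ratio. Its log2 ratio was 4.83 ± 0.23 (SD, n = 4), followed by Mrpl33 (3.99 ± 0.34), Mrpl51 (3.99 ± 0.15) and Mrpl35 (3.78 ± 0.25). The lowest were Mrpl44, a protein with a fold of the RNase III kind, at 0.11 ± 0.23, and Mrpl37 (0.12 ± 0.32), Mrpl28 (0.15 ± 0.16) and Mrpl2 (0.18 ± 0.15), which did not differ beyond their spread. In the small subunit Mrps17 (4.61 ± 0.33), Mrps25 (4.44 ± 0.15), Mrps14 (4.43 ± 0.23) and Mrps33 (3.62 ± 0.40) were highest. Mrps24 (0.047 ± 0.48), Mrps9 (0.15 ± 0.28), Mrps18a (0.44 ± 0.18) and Mrps15 (0.60 ± 0.21) were lowest.

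The order at the top changed without division by length. Mrps17 then had a log2 ratio of 0.55 and Mrps25 one of 0.70, at percentiles 76.6 and 80.7, and their transcripts were taken as 5061 and 6073 nt. For Mrps17 the transcript paired with RefSeq has 1208 nt. For Mrpl33 it has 478 nt with a coding sequence of 198 nt, against 2178 and 324 nt as taken. In the large subunit Mrpl17 was at 0.87 without length (percentile 84.9), Mrpl33 at 0.95 (86.25) and Mrpl51 at 0.60 (77.9). Mrpl42 was then the highest of that subunit at 1.41 (93.4). Without length the highest member was Mrps36 at 2.11 (percentile 98.1), then Mrps21 at 1.75 (percentile 96.4) and Mrps33 at 1.53 (percentile 94.7). Mrps24 remained the lowest at -1.12 (percentile 18.3). Its RNA was 36.1, 52.5, 56.8 and 40.0 CPM in basal replicates 1 to 4, while its RPFs were 24.8, 21.2, 17.98, 20.5 and 22.99 CPM in replicates 1 to 5. RNA was thus above RPF in every one of these libraries, in contrast to most members, but the RNA reads may include those of Urgcp.

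Members with less RNA per length had the higher ratios. Over the 77 members the log2 ratio had a Pearson r of -0.719 with log2 RNA per kb and of -0.495 with log2 coding length. RNA per kb enters the ratio, so the first relation is partly one of construction. RNA per kb and RPF per kb had an r of only 0.199. All these correlations rest on the same libraries and are given without a test.

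The paralogs Mrps18a, Mrps18b and Mrps18c, descended from one bacterial gene, differed from one another. Mrps18c, with a coding sequence of 432 nt, had 129 ± 6.76 CPM per kb of RPF, Mrps18a had 61.5 ± 5.57 and Mrps18b had 37.6 ± 4.38 (SD, n = 5). Their RNA levels were 28.5 ± 4.29, 44.0 ± 4.95 and 20.9 ± 3.22 CPM per kb (SD, n = 4). The log2 ratio was accordingly highest in Mrps18c (2.18 ± 0.30), below it in Mrps18b (0.81 ± 0.26) and lowest in Mrps18a (0.44 ± 0.18), where the last pair overlapped within their SDs.

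Mrpl50, a large subunit protein particular to mitochondria, combined a low RNA level with RPFs above the family median. Its RNA was 8.80 ± 1.35 CPM per kb (SD, n = 4), below the large subunit median, and its RPFs were 97.9 ± 8.83 CPM per kb (SD, n = 5), above it. The log2 ratio was 3.51 ± 0.30, at percentile 94.4 of all genes and at 90.3 without division by length. It stood seventh in the large subunit, next to Mrpl57 (3.54 ± 0.37) and Mrpl47 (3.41 ± 0.27), from which it did not differ beyond the spread.

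After 5 min of DHPG no member passed the test in RNA. With edgeR's quasi-likelihood test and adjusted p under 0.01, 0 of 77 members were called, where the share called over all 12935 genes was 0.00773% (1 gene). DESeq2 with the replicate block called 0 of 77 members and 0 of all 12935 genes. After ComBat, DESeq2 gave an adjusted p to 6164 genes and only 25 members, as it left out genes of lower mean count. It called 201 of these genes and 0 of these members. Without that filter on mean count, an alternative added after the data were seen, it called 0 of 77 members and 138 of 12935 genes. Mrpl50 came closest of the members in that fit (adjusted p = 0.012). At an unadjusted p under 0.05, 6 members were lower (2.81% of all genes were) and 1 was higher (5.2% of all genes were). These 6 were Mrpl50, Mrpl18, Mrpl16, Mrpl45, Mrps16 and Mrps34, and the 1 was Mrpl27. The contrast is one that chose the family, so nothing is read from these counts.

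The fitted RNA values leaned to the lower side by a small amount. The log2 fold change was below 0 in 67 of 77 members, 42 of 48 large and 25 of 29 small, with medians of -0.12 and -0.084. Over all genes 6191 of 12935 were below 0 and the median was 0.0068. The median SE of a member was 0.11, so the typical value was about as large as its own error. The range between the quartiles of the members ran from -0.15 to -0.036, which overlapped that of all genes, from -0.078 to 0.094.

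**Figure D3:**
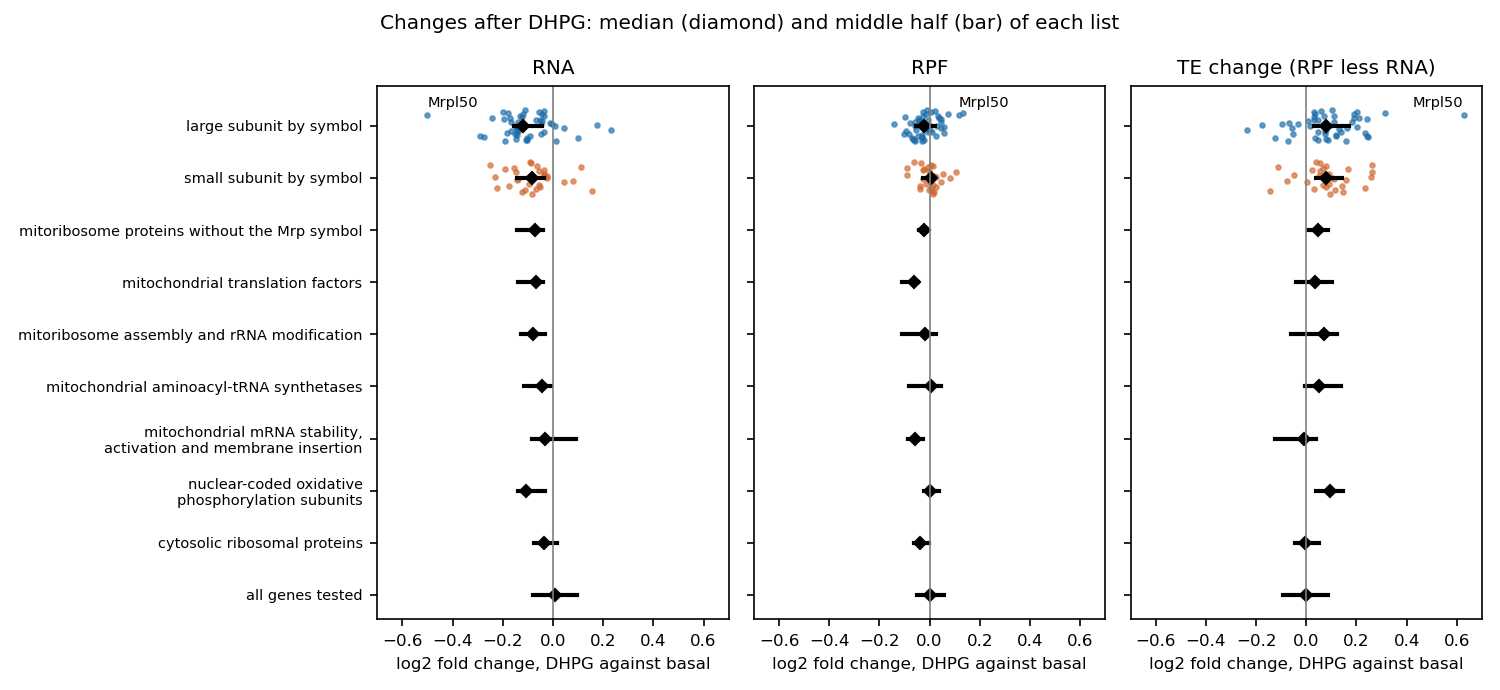
Log2 fold change between DHPG and basal slices for RNA, RPF and the difference of the 2 (TE change), with a coloured point per member, and for each gene list its median (diamond) and the range between its quartiles (bar). Member medians lie below 0 for RNA and above 0 for the TE change, and Mrpl50 stands apart at -0.50 and 0.63.

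The lean was uneven among the pairs of libraries. The median over the members was -0.055, 0.013, -0.12 and -0.21 in replicate pairs 1 to 4, with 47, 36, 58 and 69 of 77 members lower. Pair 4 gave the largest shift and pair 2 none, and the small subunit median in pair 2 was 0.073. Without replicate 4 the median over the members was -0.060 and 51 of 77 were lower. DHPG RNA replicate 5 has no basal partner and carries no weight in these values.

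Other gene lists shifted in the same pairs. Cytosolic ribosomal proteins had RNA medians of 0.0015, 0.22, -0.031 and -0.33 in pairs 1 to 4, and oxidative phosphorylation subunits had -0.052, 0.14, -0.16 and -0.26. Their fitted medians were -0.037 (53 of 78 lower) and -0.11 (58 of 74 lower). By edgeR 0 genes of either list were called (0.00773% of all genes were). At an unadjusted p under 0.05, 3 and 16 were lower (2.81% of all genes were). Over all genes, the log2 fold change in RNA rose slightly with transcript length (Spearman 0.151, across 12640 genes of the same libraries), and the members' transcripts were short, with a median of 1332 nt against 3152 nt. When the trends of the libraries with GC content and length were taken out, a correction added after the data were seen, 64 of 77 members were lower with a median of -0.080.

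Markers of cell types and of neighbouring tissue moved with DHPG as well. In RNA, 7 of 7 oligodendrocyte markers were higher with a median log2 fold change of 0.17, and 11 of 11 tested thalamus markers were higher with a median of 0.28, among them Prkcd, the gene called in RNA (0.70, adjusted p = 0.00444). In RPFs these medians were 0.11 and 0.22, but in pair 5 they were -0.098 and -0.11. Mag and 6 thalamus markers were called in RPFs, where 0.22% of all genes were. Markers of astrocytes and of microglia were higher in RPFs in 7 of 7 each (medians 0.055 and 0.10), and endothelial and mural markers were lower in 5 of 6 (median -0.087), with 0 called in these 3 lists. In RNA the medians of the 3 lists were 0.061, 0.0015 and -0.015. Neuron markers were higher in 5 of 6 in RNA (median 0.062) and in 4 of 6 in RPFs (median 0.032). Hippocampal field markers were higher in 5 of 6 in RNA (median 0.066) and in 2 of 6 in RPFs (median -0.013). Summed oligodendrocyte markers ran from 2624 to 5585 CPM in basal RNA and from 3033 to 6384 in DHPG RNA, lowest in replicate 4 of both groups. Summed thalamus markers ran from 353 to 478 CPM and from 431 to 568 CPM. No marker of these lists was at 0 in any group, and their part in the members' values was not tested.

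**Figure D4:**
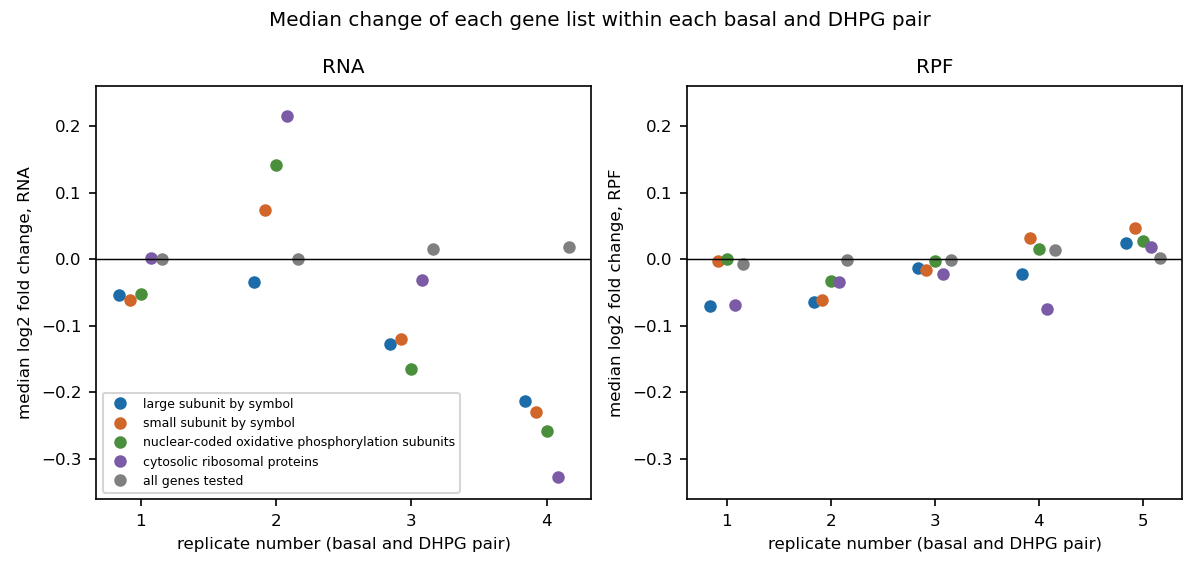
Median log2 fold change of each gene list within each pair of basal and DHPG libraries of the same replicate number, for RNA (4 pairs) and RPF (5 pairs). RNA medians of both subunits are lowest in pair 4, near -0.21 and -0.23, together with those of cytosolic ribosomal proteins and oxidative phosphorylation subunits, while the RPF medians of these 4 lists stay between -0.075 and 0.047.

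Mrpl50 had the lowest RNA fold change of the family. Its RNA was 21.2, 16.1, 16.2 and 20.9 CPM in basal replicates 1 to 4 and 11.7, 14.4, 13.6, 13.5 and 16.3 CPM in DHPG replicates 1 to 5. The DHPG library was the lower in each of the 4 pairs, but the groups overlapped, since DHPG replicate 5 was above basal replicates 2 and 3. The log2 fold change was -0.50 (SE 0.13), lower than in all but 60 of the 12935 genes tested. The value was -0.38 without replicate 1 and -0.59 without replicate 2.

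Mrpl18 and Mrpl16, both with bacterial counterparts, followed among the members lower in every pair. Mrpl18 had 35.9, 34.4, 30.9 and 38.0 CPM in basal RNA and 29.7, 25.1, 28.7, 30.1 and 34.1 CPM after DHPG, a log2 fold change of -0.29 (SE 0.094). Mrpl16 had 26.1, 20.4, 26.7 and 24.8 CPM in basal RNA and 21.03, 19.8, 22.3, 18.4 and 25.2 CPM after DHPG, with -0.28 (SE 0.11). The groups of Mrpl18 overlapped through DHPG replicate 5, and those of Mrpl16 through replicates 1, 3 and 5.

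Mrpl3, a protein of the peptidyl transferase region in bacteria, was the 1 member whose RNA groups did not overlap, as in 0.51% of all genes. It was named here after its values were seen. Its RNA was 72.9, 73.8, 73.9 and 74.97 CPM in basal and 67.1, 67.0, 69.2, 64.2 and 66.3 CPM in DHPG libraries, a log2 fold change of -0.14 (SE 0.076). In all, 14 of 77 members were lower in every pair and 2 were higher, beside 901 and 1121 of all 12935 genes.

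The 2 members higher in every RNA pair were Mrpl27, related to a bacterial protein near the peptidyl transferase centre, and Mrps12. Mrpl27 had 22.1, 18.8, 21.6 and 20.5 CPM in basal RNA and 27.5, 23.3, 23.5, 23.3 and 20.01 CPM after DHPG, a log2 fold change of 0.23 (SE 0.10). Its DHPG replicates 1 to 4 all lay above the basal range, and replicate 5 lay within it. Mrps12 had a log2 fold change of 0.16 (SE 0.093), with the pairs between 0.0098 and 0.37.

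**Figure D5:**
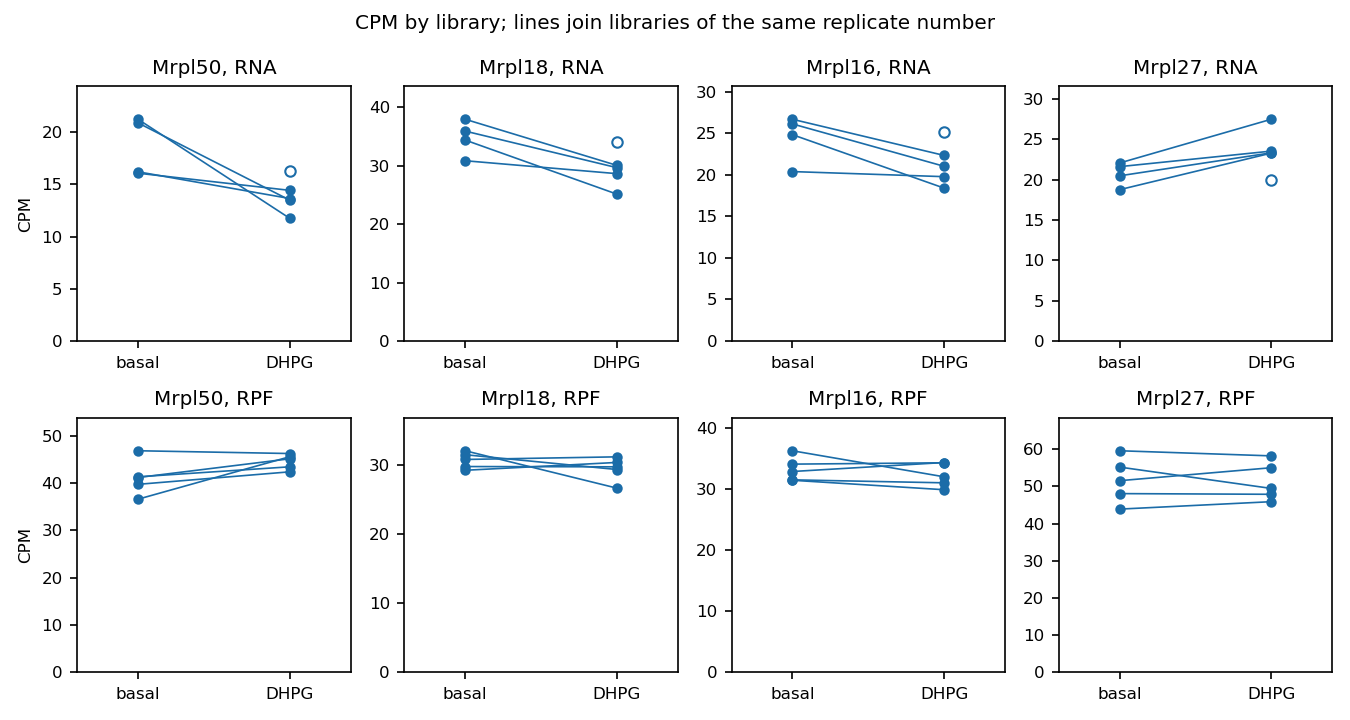
CPM of Mrpl50, Mrpl18, Mrpl16 and Mrpl27 in each library, RNA above and RPF below, with lines that join libraries of the same replicate number and an open circle for DHPG RNA replicate 5, which has no partner. RNA of the first 3 genes falls along each line and that of Mrpl27 climbs, whereas the RPF lines cross.

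RPFs of the members hardly moved with DHPG. At adjusted p under 0.05, 0 of 77 members were called by edgeR, where 0.22% of all 13208 genes were (29 genes). DESeq2 with the replicate block gave no member an adjusted p, since its filter on mean count left 1429 genes. Without that filter it called 0 of 77 members and 4 genes in all. At an unadjusted p under 0.05, 3 members were lower (Mrpl38, Mrpl20 and Mrpl2, against 4.21% of all genes) and 2 were higher (Mrpl50 and Mrpl53, against 6.55% of all genes). No member had RPF groups that did not overlap, while 0.394% of all genes did. The medians were -0.024 in the large and 0.0057 in the small subunit, with 33 of 48 and 13 of 29 lower, beside a median of 0.0031 over all genes.

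The RPF values bounded changes more tightly than RNA did. The median SE of a member was 0.052 on the log2 scale and the members ran from -0.14 (Mrpl38) to 0.13 (Mrpl53). The pair medians over all members were -0.052, -0.060, -0.016, 0.0072 and 0.031, on both sides of 0. The members lower in all 5 pairs were Mrpl2 (-0.10, SE 0.051), Mrpl13 (-0.067, SE 0.043) and Mrpl28 (-0.054, SE 0.043), and no member was higher in all 5, beside 623 lower and 681 higher of all 13208 genes. Mrpl2, a relative of a core bacterial protein, had 33.1, 32.1, 33.4, 34.9 and 38.1 CPM in basal and 31.3, 28.8, 31.2, 33.2 and 35.7 CPM in DHPG libraries, which overlapped.

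RPFs of Mrpl50 were 39.7, 46.8, 41.2, 41.3 and 36.6 CPM in basal replicates 1 to 5 and 42.4, 46.2, 45.1, 43.4 and 45.6 CPM after DHPG. They were higher after DHPG in 4 of 5 pairs, the groups overlapped, and the log2 fold change was 0.12 (SE 0.049). Without replicate 5 it was 0.067, so that pair carried much of it. RNA and RPF of this gene thus pointed to opposite sides.

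The difference between the RPF and the RNA effect, called TE change here, was tested as the interaction of assay and treatment. With edgeR at adjusted p under 0.05, 0 of 77 members were called, as were 0% of all 12691 genes. Limma on the differences within replicates also called 0 members and 0 of all 12691 genes. At an unadjusted p under 0.05, 10 members were higher (3.15% of all genes were) and 1 was lower (3.62% of all genes were). The log2 value was above 0 in 64 of 77 members, with a median of 0.080 in the large and 0.079 in the small subunit, beside -0.0011 over all genes. Oxidative phosphorylation subunits had a median of 0.094 and cytosolic ribosomal proteins one of -0.0043.

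Like the RNA values, the TE values differed by pair. The median over the members was 0.0084, -0.083, 0.086 and 0.22 in pairs 1 to 4, and without replicate 4 the fitted median was 0.039 with 49 of 77 members higher. The RNA and RPF effects of the members had an r of -0.0984 with each other across the 77 genes.

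Mrpl50 had the largest TE value of the family, 0.63 (SE 0.13), with 28 of the 12691 genes above it. Its pairs 1 to 4 were 0.93, 0.13, 0.37 and 0.69. The fitted value also drew on RPF pair 5 (0.32), which has no RNA partner. It was 0.58 without replicate 5, and limma on the differences within replicates gave 0.53. Mrpl53, particular to mitochondria, followed among the members higher in every pair at 0.32 (SE 0.10), then Mrpl18 at 0.24 (SE 0.10). RNA of Mrpl53 was 21.4, 29.9, 34.4 and 28.1 CPM in basal and 19.4, 27.4, 29.8, 24.0 and 30.8 CPM in DHPG libraries. Its RPFs were 23.1, 22.5, 21.2, 27.2 and 28.7 CPM and 30.1, 25.6, 22.9, 29.8 and 28.1 CPM. The DHPG and basal groups overlapped in both assays. Mrpl53 overlaps Gm42688 on its own strand and Ccdc142os on the other strand. Whether its reads were kept apart from theirs was not tested. The members lower in every pair by the most were Mrpl27 (-0.23, SE 0.10), Mrpl36 (-0.18, SE 0.12) and Mrps12 (-0.14, SE 0.10).

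Other genes of mitochondrial translation, from lists chosen with earlier results known, were called in none of the 3 fits by edgeR. Over all genes the shares called were 0.00773% in RNA, 0.22% in RPFs and 0% for the TE change. Of their 66 genes, 5 were lower in RNA at an unadjusted p under 0.05 (2.81% of all genes were) and 1 was higher (5.2% of all genes were). In RPFs 5 were lower (4.21% of all genes were) and 2 were higher (6.55% of all genes were). Of 6 mitoribosome proteins without an Mrp symbol, 5 had lower RNA values after DHPG with a median of -0.070, and Aurkaip1, the one with the highest RNA level, had -0.17 (SE 0.079). Of 11 translation factors 10 were lower in RNA (median -0.066) and 10 in RPFs (median -0.063), with the elongation factor gene Tufm at -0.059 (SE 0.086) and -0.021 (SE 0.040). Of 24 genes of assembly and rRNA modification, 19 were lower in RNA (median -0.079) and 15 in RPFs (median -0.017), and the helicase gene Dhx30 had -0.091 (SE 0.072) in RNA. Of 17 mitochondrial aminoacyl-tRNA synthetases, 13 were lower in RNA (median -0.044) and 8 in RPFs, with Tars2 at -0.027 (SE 0.083). Of 8 genes of mitochondrial mRNA stability, activation and membrane insertion, 5 were lower in RNA and 8 in RPFs (median -0.057), and Lrpprc, which stabilises mitochondrial mRNAs, had -0.11 (SE 0.033) in RPFs.

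At rest, the position of these lists beside the ribosomal proteins rested on the division by length. Per length, the median log2 ratio was 1.66 in the 6 mitoribosome proteins without an Mrp symbol, 1.12 in genes of mRNA stability, activation and insertion, 0.70 in translation factors, 0.41 in assembly and modification genes and -0.19 in the synthetases, beside 1.90 over all members. Without division by length these medians were 0.036, 0.47, 0.25, -0.42 and -0.88, beside 0.38 over all members. The translation factors were then level with the small subunit, and the genes of mRNA stability, activation and insertion above the median of all members. RPF medians were 72.5, 34.0, 18.9, 12.1 and 9.48 CPM per kb in the same order. The coding sequences of the last 4 lists were longer, with medians of 1246.5, 1161, 1176 and 1659 nt against 579 nt in the members. These differences were not tested.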

How the data were processed

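The deposited values are expected counts that the authors obtained with RSEM and rounded, for RNA over whole transcripts and for RPFs over coding sequences without 30 nt at either end. Before that, adapters were trimmed with cutadapt, rRNA reads removed with Bowtie2, and reads mapped to mm10 with TopHat2, per the labels and the study's methods. Unique molecular identifiers were used to remove duplicates. The tables also hold 12 columns of replicates 6 to 8, which match no sample and were not used. The members, lists and tests were chosen with earlier results of these data known.

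Fits were made with edgeR 4.0.16 in R 4.3.3, and alternatives with DESeq2 1.42.0, sva 3.50.0 (ComBat) and limma 3.58.1. Each fit used all genes kept by filterByExpr, TMM normalization, edgeR's quasi-likelihood test and Benjamini-Hochberg adjustment over all genes, with replicate number as a block, because the study removed batches by that number. Same-numbered libraries deviated together (correlations 0.308 to 0.741 in RNA, 0.259 to 0.523 in RPF). TE change was the interaction of assay and treatment over all 19 libraries. Ratios used log2 CPM with a prior count of 2. Lengths came from GENCODE vM21, by the transcript with the longest coding sequence, and 99.4% of genes matched. Replicates are pools of mice. Whether pools of a number share animals is not given in the sources used here. The scripts were tested on simulated data.

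The genes named are Mrpl50, the 3 members with the largest change each way among those alike in every pair, the 4 highest and lowest ratios and 3 highest and lowest RNA levels per subunit, 5 members of special symbol or paralogy, and the highest gene of each other list. Protein sequences were not used here. The alternatives were another normalization, other filters, no block, each replicate left out, DESeq2, ComBat, another threshold, limma, other lengths and prior counts, and another assignment of 3 genes. A GC content and length correction, RefSeq-paired lengths and DESeq2 without independent filtering were added after the data were seen.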

Additional observations from a re-analysis of the deposited data

Results flagged for a closer look

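Among 148 groups of 4 or 5 libraries tested for a library far from the rest (34 named members and the share of counts taken by the members), 4 were marked, where chance marks about 1 in 20. RNA of Mrpl35 was 27.4 CPM in DHPG replicate 2, above 16.7 to 19.5 CPM in the other DHPG libraries. Basal RPFs of Mrpl47 were 21.6 CPM in replicate 5, below 23.8 to 24.2 CPM in the others. Basal RPFs of Mrps15 were 26.4 CPM in replicate 2, below 31.2 to 32.6 CPM. RPFs of Mrps5 after DHPG were 35.6 CPM in replicate 1, above 28.5 to 30.3 CPM. The cause was not tested.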

How the results depend on the processing

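No member was called in RNA or RPF under any setting. All 77 had an adjusted p in each, except that DESeq2's filter on mean count left 25 of them in RNA and 16 in RPF after ComBat, and 0 in RPF with the replicate block, which is then no test of the members. Without that filter, added after the data were seen, 0 of 77 were called in each of these fits. For the TE change 1 member, Mrpl50, was called with no filter on low counts, where 3 of all 16344 genes were. Mrpl50 was again the 1 member called without replicate 2, where 8 of all 12728 genes were. Over the replicates left out, the range was 0 to 1 member. The contrast is one that chose Mrpl50, so nothing is read from these calls. Replicate numbers left out in turn gave medians of -0.15 to -0.060 for RNA (51 to 69 members lower), -0.025 to 0.0014 for RPF (37 to 54 lower) and 0.039 to 0.14 for the TE change (49 to 65 higher). With no replicate block the medians were -0.095, -0.014 and 0.063, and 64, 46 and 62 members lay on the same sides. No member was called in that setting, nor was any gene for the TE change. Over all genes, calls in RNA went from 1 to 0 without the block and to 201 with ComBat (138 without DESeq2's filter), and calls in RPF from 29 to 0 and to 427 (273 without it). The resting ratio less that of all genes was 1.03 in the large and 1.06 in the small subunit. It was 0.59 and 0.43 without length, 0.66 and 0.50 with both assays per kb of coding sequence, 0.83 and 0.47 under the study's filter of coding length and RPKM, 1.24 in the large subunit with no filter, and 0.42 in the small subunit with RefSeq-paired transcripts. The large over small ratio of median levels (log2) was 0.28 for RNA and 0.41 for RPF. It was -0.026 and 0.063 without length, so the order of the subunits in RNA turned, and 0.19 for RNA with Mrps30 and Mrps18a moved to the large subunit and Mrps36 left out. For RNA it ran from 0.15 to 0.32 with replicates left out. In all, 144 of the other main values were labelled unchanged. For medians this means within the SD between replicates, and for counts within a fixed fold of the main count. A count could keep that label though the majority turned, as for RPF without replicate 2 (37 of 77 lower, against 46 in the main fit). Of the values of named genes, 175 kept their sign and whether they were called.

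The median SE of a member was 0.11 in RNA and 0.052 in RPF on the log2 scale, so smaller changes could be seen in RPF. What part depth has in this was not tested. Transcript lengths are not measured in these slices, so ratios per length depend on the annotated transcript. Intervals and SEs cover the pooled replicates. With the replicate block, DHPG RNA replicate 5 has a block term of its own. It then adds nothing to the fold changes or their SEs except through filtering and normalization.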
